A study of Mus musculus with 12 samples.

Results

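DNA replication and S-phase genes are described here as a set of 44 genes, out of 24454 in the deposited expression table. They were chosen by name, as textbook parts of the replication machinery and of entry into S phase, and kept where their level reached 1 CPM (read counts scaled to the total of each library) in at least 2 of the 12 libraries. All 44 passed. The set holds the 6 subunits of the replicative helicase, 4 genes that load it, 6 that start it, 7 for the sliding clamp and its loaders, and 4 of the polymerase alpha-primase. A further 4 code for polymerases delta and epsilon, 2 join Okazaki fragments, 3 bind single-stranded DNA, 4 copy chromatin and DNA methylation, and 4 act in S-phase entry or on histone mRNA.

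The levels come from RNA sequencing of 3 mesenchymal mouse mammary tumour cell lines, each with 2 libraries per treatment. PyMT-1099 LT and Py2T LT carry the strain label MMTV-PyMT and MT∆Ecad carries MMTV-Neu, so each line came from a mouse with an oncogene under the mouse mammary tumour virus promoter. Every culture received siRNA for 48 hours, either against Nrf2 (siNrf2) or non-targeting (siCtl), which makes 6 groups. The design text calls the replicates biological duplicates, each tumour model other than PyMT is represented by a single line, and the siRNA sequences are not given in the sources used here. The name MT∆Ecad marks that line as E-cadherin-deleted, which the names of the other lines do not. The names of both PyMT lines also carry the tag LT, which the name MT∆Ecad does not. The line, its tumour model, the E-cadherin deletion and whatever the tag marks therefore cannot be told apart.

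Nfe2l2, the gene that encodes NRF2, was at 83.6 to 209 CPM in the siCtl libraries and at 21.9 to 54.0 CPM in the siNrf2 libraries, so 25.2% of the control mean was left in MT∆Ecad, 26.8% in Py2T LT and 26.1% in PyMT-1099 LT. Depth ran from 27088970 to 37070635 reads per library, so that 1 CPM stands for 27.1 to 37.1 reads. The mesenchymal label was checked against 8 markers, whose summed level was 9917 to 17380 CPM, although Twist1 and Snai2 were listed at 0 in PyMT-1099 LT. Cdh1, which encodes E-cadherin, was at 47.8 to 62.1 CPM in PyMT-1099 LT, 12.5 to 18.1 CPM in Py2T LT and at most 0.639 CPM in MT∆Ecad. Epithelial markers summed to 983.1 to 5395 CPM. Markers of leukocytes summed to at most 6.25 CPM and those of adipocytes to at most 0.239 CPM. Of 4 endothelial markers, Cdh5 averaged 89.3 CPM with siCtl and 123 CPM with siNrf2 in PyMT-1099 LT, while Pecam1 averaged at most 0.145 CPM, Kdr at most 0.0311 CPM and Tie1 at most 0.0140 CPM there. The 4 summed to at most 6.30 CPM in the other lines.

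Replication starts in G1, when the origin recognition complex, CDC6 and CDT1 load the MCM2-7 helicase onto DNA. At the start of S phase CDC45, the GINS complex and MCM10 turn the loaded helicase into a moving fork, and polymerase alpha-primase, the clamp PCNA, its loader RFC and polymerases delta and epsilon copy the strands. Many of these genes are transcribed in a wave at the G1/S boundary under E2F transcription factors, which are released from the RB protein when cyclin-dependent kinases act. NRF2 is a transcription factor that is degraded through KEAP1 in unstressed cells and that binds antioxidant response elements with small MAF proteins. In mammary tumour lines in culture, high levels of replication genes are the usual state of dividing cells. In these bulk samples, fewer cells in S phase and less of each RNA per cell cannot be told apart.

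Upstream sequences are shown because the E2F wave is what these genes are best known to share. RefSeq promoter entries for the build GRCm38.p6, 250 bases before to 50 after each start, were found for 35 of the 44 members. Gene coordinates are those of RefSeq on that build. The missing members were Mcm4, Gins1, Gins2, Gins4, Rfc2, Dscc1, Prim2, Pole and Ccne2. An E2F site was searched for as any of the letters TTTCCCGC, TTTGGCGC, TTTGCCGC and TTTCGCGC on either strand. It was found in 15 of the 35 members (42.9%), beside 2.6% of the 27025 genes with an entry and 4.82% of the 9925 of these that were tested. The core of the NRF2 site, TGACNNNGC on either strand, was found in 7 members (20%), beside 14.0% and 16.8%. That is near the share over the tested genes. These were Cdc6, Gins3, Orc6, Pcna, Pold2, Rfc3 and Rfc5. CCAAT on either strand was found in 23 members (65.7%), beside 41.1% and 43.6%. These matches describe letters and no binding was measured. The letters of the E2F search can overlap their own complement, as in Mcm5 and in the first Mcm6 window, where 2 matches share 4 bases.

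The 250 bases before the start of Mcm5, the helicase subunit with the largest difference in MT∆Ecad, hold that pair of matches in capitals:
Mcm5 (chr8:75109259-75109508, plus strand): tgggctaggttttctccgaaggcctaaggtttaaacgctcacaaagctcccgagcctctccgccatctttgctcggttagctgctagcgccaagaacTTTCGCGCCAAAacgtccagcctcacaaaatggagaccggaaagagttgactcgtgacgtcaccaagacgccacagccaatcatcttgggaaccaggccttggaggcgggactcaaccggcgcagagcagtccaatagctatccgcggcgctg

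Windows of 30 bases, read 5′ to 3′ along the gene, show all E2F matches that lie whole in the window in capitals for 6 members described further on:
Mcm6 (chr1:128359797-128359826, minus strand): tggcgtatgctTTTGGCGCGAAAagtgcgt
Mcm6 (chr1:128359734-128359763, minus strand): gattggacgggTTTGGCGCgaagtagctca
Orc1 (chr4:108579416-108579445, plus strand): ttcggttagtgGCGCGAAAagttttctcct
Cdc6 (chr11:98908002-98908031, plus strand): gccggtggagaGCGGGAAAtcgcctggggt
Mcm7 (chr5:138172030-138172059, minus strand): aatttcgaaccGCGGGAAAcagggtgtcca
Pola1 (chrX:93632275-93632304, minus strand): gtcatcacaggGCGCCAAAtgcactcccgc
Uhrf1 (chr17:56304117-56304146, plus strand): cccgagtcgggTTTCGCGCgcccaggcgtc

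Windows with the letters of the NRF2 core in capitals are shown for the clamp gene and for 3 others. Gins3, Orc6 and Rfc5 also hold the core and are not shown. The windows are given because the knockdown is aimed at the factor that reads such a core:
Pcna (chr2:132253205-132253234, minus strand): ctgtggcgtcaTGACCTCGCgcagggaaaa
Cdc6 (chr11:98908026-98908055, plus strand): tggggtctgagGCTGGGTCAgggagggggt
Pold2 (chr11:5878326-5878355, minus strand): aaccggaggcgTGACTCCGCgtttcctcgg
Rfc3 (chr5:151651213-151651242, minus strand): ggtgccggaagTGACGTCGCacgctttcgc

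The replication genes were lower after Nrf2 knockdown in MT∆Ecad, and by level this held in all 10 roles of the set. Differences are given as siNrf2 minus siCtl on the log2(CPM + 1) scale, with a standard error (SE) from a limma fit to all 12 libraries, and a gene is called at an adjusted p under 0.05 over all 12502 tested genes. In MT∆Ecad 31 of 44 members fell and 0 rose, beside 8.42% of all tested genes called lower. The median difference over the members was -0.57, or 67.5% of the control level, and the median over all tested genes was 0.00. Both siNrf2 libraries lay below both siCtl libraries for 44 of 44 members in this line, beside 32.8% of all tested genes.

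In PyMT-1099 LT 0 of 44 members were called, beside 0.184% of all genes called lower, and in Py2T LT also 0, beside 0.096%. The members' medians were -0.19 and -0.12, or 87.5% and 91.8% of the control level, while the medians over all tested genes were 0.00 and -0.02. At an unadjusted p under 0.05, limma gave 5 lower members in Py2T LT (3.84% of all genes) and 10 in PyMT-1099 LT (3.86%). On recovered read counts edgeR and DESeq2 also called 0 members in either line. At that unadjusted level edgeR gave 1 in Py2T LT (2.42% of all genes), a share near that over all genes, and 10 in PyMT-1099 LT (3.52%). DESeq2 gave 1 (1.78%) and 6 (2.48%). Both siNrf2 libraries lay below both siCtl libraries for 26 members in PyMT-1099 LT (17.1% of all tested genes) and 18 in Py2T LT (15.9%). The reverse arrangement was found for 0 members in any line. Mcm6, Orc1, Mcm10, Pcna, Rfc3, Rfc4, Dscc1, Pole, Pole2, Lig1, Uhrf1 and Slbp were separated in this way in all 3 lines. The share of all tested genes separated in all 3 lines was not counted.

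Averaged over the 3 lines with equal weight, 28 of 44 members fell, beside 6.26% of all tested genes, with a median of -0.29. That count rested on MT∆Ecad, since 0 members were called in the average of the other lines. A fit that pairs libraries by their replicate number called more: 43 members lower in MT∆Ecad (21.2% of all genes), 40 on average (21%), 1 in Py2T LT (0.672%) and 13 in PyMT-1099 LT (3.95%). Without 1 library of MT∆Ecad, siCtl replicate 1 or siNrf2 replicate 2, the unpaired count in that line was 15, and the average gave 16 or 17. The average gave 18 without siCtl replicate 1 of PyMT-1099 LT or of Py2T LT. No share over all genes was counted for the fits that leave out a library. With 2 libraries a group, p-values reflect only the spread among these cultures.

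**Figure D1:**
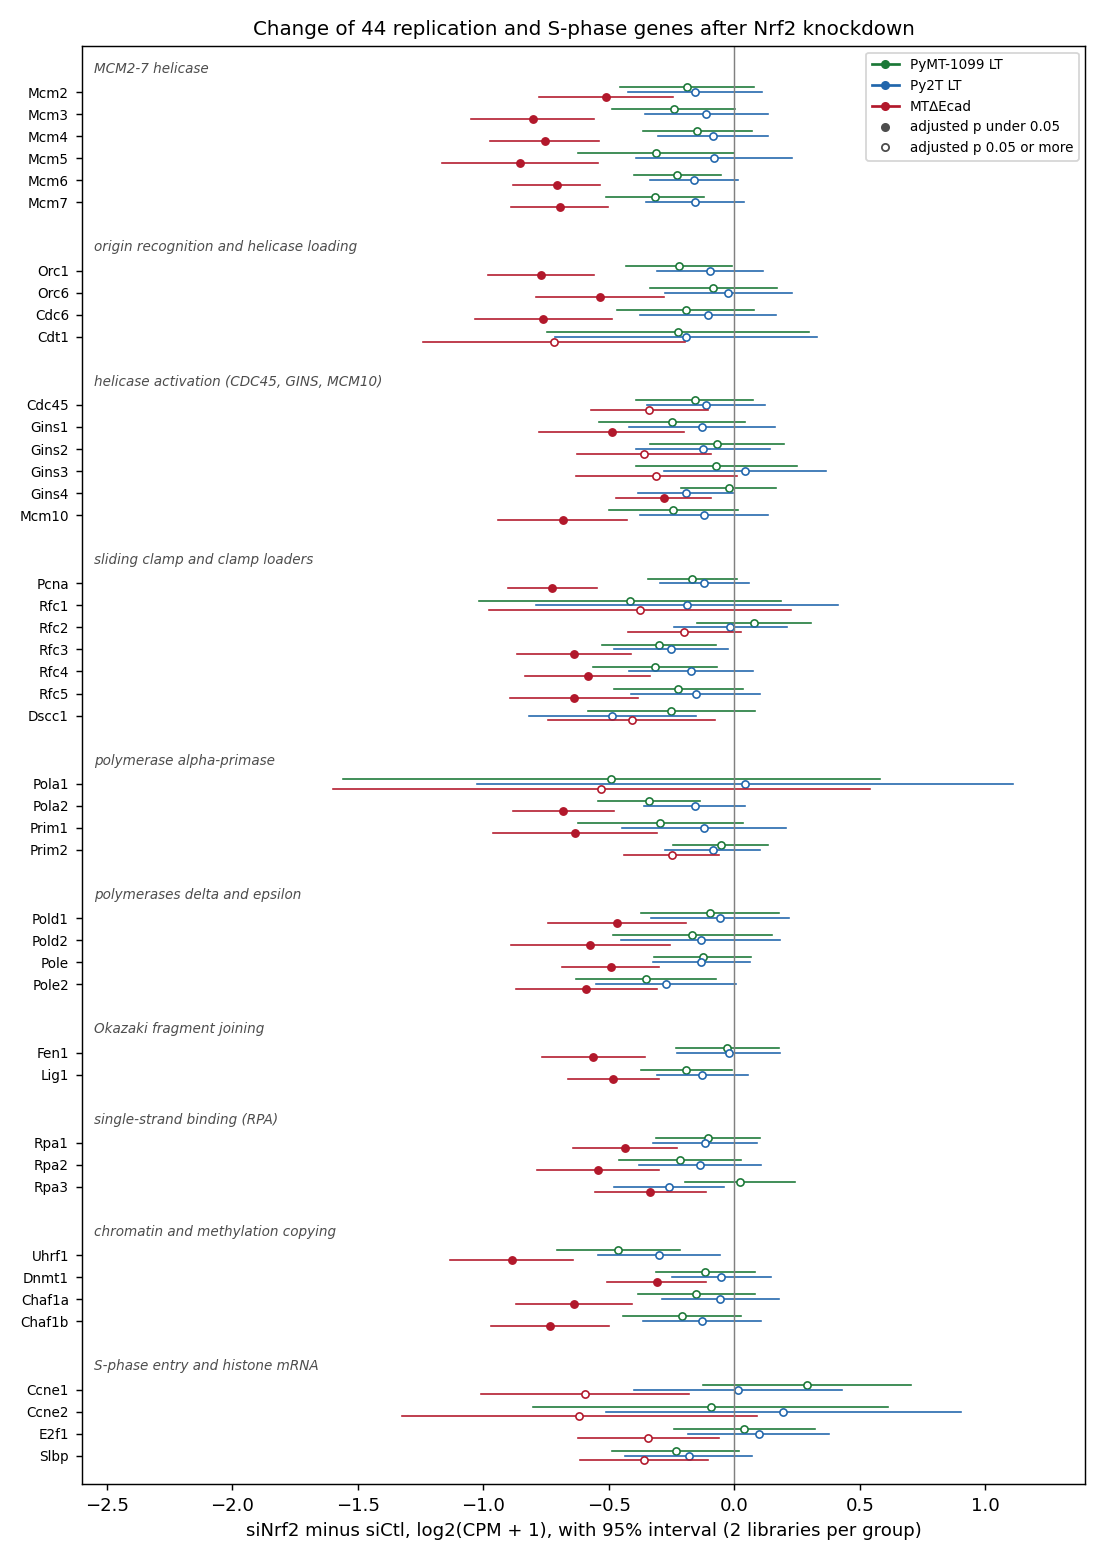
Difference between siNrf2 and siCtl on the log2(CPM + 1) scale (x axis) for each of the 44 members (rows, grouped by role) in the 3 lines (colours), as points with 95% intervals from limma. Filled points have an adjusted p under 0.05. All filled points belong to MT∆Ecad, where 31 of 44 members were called and every point lies below 0.

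The difference was also read within each pair of libraries that share a replicate number. In MT∆Ecad 44 of 44 members were lower with siNrf2 in both pairs, with medians of -0.60 and -0.54. In PyMT-1099 LT 39 and 40 members were lower, with medians of -0.18 and -0.20, and in Py2T LT 39 and 36, with medians of -0.13 and -0.12. Over all tested genes, 47.8% to 57.0% were lower within a pair. Of the 44 members, 31 were lower in all 6 pairs, 7 in 5 pairs, 3 in 4 and 3 in 3. With its sign, the difference was lowest in MT∆Ecad for 42 members and highest in Py2T LT for 35. The counts over all 6 pairs and by order of the lines were not made over all tested genes.

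**Figure D2:**
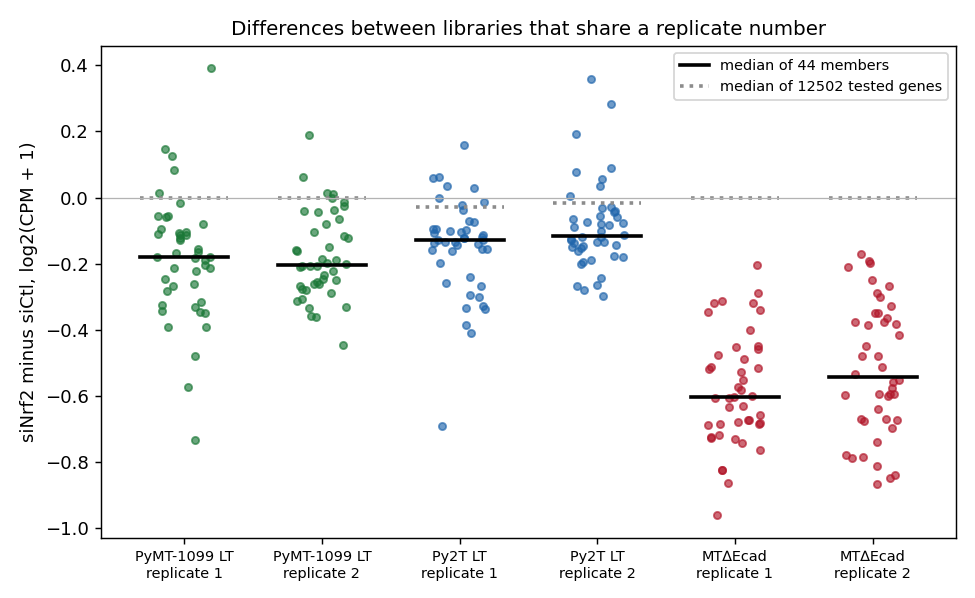
Each point is 1 of the 44 members, plotted as siNrf2 minus siCtl on the log2(CPM + 1) scale (y axis) within each of the 6 pairs of libraries that share a replicate number (x axis). Black bars mark the members' medians, from -0.60 in a MT∆Ecad pair to -0.12 in a Py2T LT pair, and dotted bars the medians over 12502 tested genes, which lie near 0.

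All 6 subunits of the helicase fell in MT∆Ecad. These subunits form the ring that unwinds the parental strands, and all 6 were also called on the average. Mcm6 (chr1:128331575-128359705) was at 369 and 348 CPM with siCtl and 220.2 and 218 CPM with siNrf2 in MT∆Ecad. In PyMT-1099 LT it was at 329.7 and 297 CPM with siCtl and 278 and 257 CPM with siNrf2, and in Py2T LT at 359.9 and 368 CPM with siCtl and 326 and 326 CPM with siNrf2. The siNrf2 libraries were the lower ones in each line, without overlap. The difference was -0.71 (SE 0.077, adjusted p = 0.000843) in MT∆Ecad, against -0.23 and -0.16 in PyMT-1099 LT and Py2T LT.

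Mcm7 (chr5:138164583-138172111), whose introns also hold a microRNA cluster, was at 248 and 241 CPM with siCtl and 151 and 151 CPM with siNrf2 in MT∆Ecad. It stood at 227 and 217 CPM with siCtl and 181 and 175 CPM with siNrf2 in PyMT-1099 LT, and at 313 and 285 CPM with siCtl and 287 and 249 CPM with siNrf2 in Py2T LT, where the groups overlapped. The differences were -0.70 (SE 0.086, adjusted p = 0.00144) in MT∆Ecad, -0.16 in Py2T LT and -0.31 in PyMT-1099 LT. Mcm3 was at 381 and 348 CPM with siCtl and 215 and 202 CPM with siNrf2 in MT∆Ecad, a difference of -0.80 (SE 0.11, adjusted p = 0.00199). The same gene was at 444 and 399.8 CPM with siCtl and 381 and 334 CPM with siNrf2 in PyMT-1099 LT, and overlapped in Py2T LT, at 404 and 361 CPM with siCtl and 378 and 331 CPM with siNrf2. Mcm4 was at 317 and 289 CPM with siCtl and 191 and 167 CPM with siNrf2 in MT∆Ecad, at 379 and 363 CPM with siCtl and 335 and 335 CPM with siNrf2 in PyMT-1099 LT and at 321 and 345 CPM with siCtl and 294 and 335 CPM with siNrf2 in Py2T LT. Its difference was -0.76 (SE 0.10, adjusted p = 0.00165) in MT∆Ecad, -0.085 in Py2T LT and -0.15 in PyMT-1099 LT.

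Mcm5 had the largest difference of the 6 in MT∆Ecad, where it was at 403 and 376 CPM with siCtl and 221 and 209 CPM with siNrf2, or -0.85 (SE 0.14, adjusted p = 0.00436). In Py2T LT its libraries overlapped, at 397 and 331 CPM with siCtl and 393 and 299 CPM with siNrf2. Mcm2, at 382 and 378 CPM with siCtl and 272 and 261 CPM with siNrf2 in MT∆Ecad, had the smallest, -0.51 (SE 0.12, adjusted p = 0.0187). With libraries paired by replicate number, Mcm3, Mcm5, Mcm6 and Mcm7 were also called in PyMT-1099 LT, with adjusted p of 0.0205, 0.0177, 0.0259 and 0.0127.

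Levels of different subunits were compared only per kb of exon, from the GENCODE annotation of the same build. The 6 lay within 1.94-fold of each other in siCtl libraries of PyMT-1099 LT (71.6 to 139 CPM per kb), within 1.55-fold in Py2T LT (83.2 to 129) and within 1.47-fold in MT∆Ecad (81.9 to 120). After knockdown the range in MT∆Ecad was 49.9 to 79.1 CPM per kb, or 1.58-fold. Mcm3 or Mcm2 was the highest subunit in every group, and Mcm6, Mcm7 or Mcm4 the lowest.

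**Figure D3:**
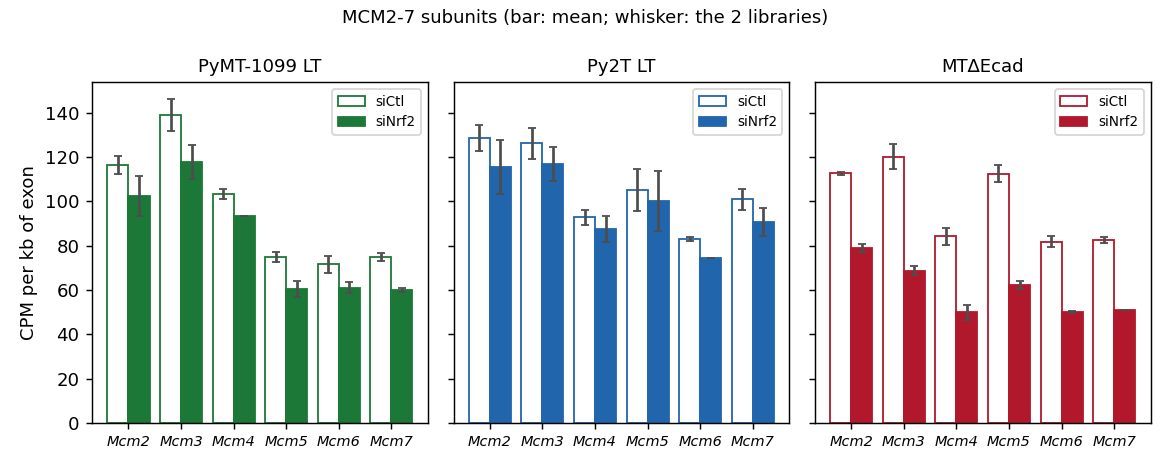
Level of each MCM2-7 subunit in CPM per kb of exon (y axis, from 0) in the 3 lines, with siCtl as open and siNrf2 as filled bars. Bars are means of 2 libraries and whiskers reach the 2 libraries. In MT∆Ecad all 6 filled bars lie between 49.9 and 79.1 CPM per kb, below the lowest open bar at 81.9.

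Of the 4 genes that recognise origins and load the helicase, 3 fell in MT∆Ecad and 2 on the average. Orc1 (chr4:108575705-108616030), the largest subunit of the origin recognition complex, was at 30.8 and 31.2 CPM with siCtl and 18.9 and 16.7 CPM with siNrf2 in MT∆Ecad. It was at 28.6 and 28.0 CPM with siCtl and 23.3 and 24.98 CPM with siNrf2 in PyMT-1099 LT and at 24.3 and 24.5 CPM with siCtl and 22.1 and 23.5 CPM with siNrf2 in Py2T LT. The groups were separated in each line, by less than 1 CPM in Py2T LT. The difference was -0.77 (SE 0.094, adjusted p = 0.00135) in MT∆Ecad, -0.10 in Py2T LT and -0.22 in PyMT-1099 LT. Cdc6 (chr11:98907709-98923942), the ATPase that recruits the helicase to origins, was at 65.4 and 56.8 CPM with siCtl and 36.5 and 34.6 CPM with siNrf2 in MT∆Ecad, a difference of -0.76 (SE 0.12, adjusted p = 0.0041). Its libraries overlapped in PyMT-1099 LT, at 83.7 and 76.4 CPM with siCtl and 77.6 and 62.8 CPM with siNrf2, and nearly met in Py2T LT, at 102 and 91.7 CPM with siCtl and 91.7 and 88.2 CPM with siNrf2.

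Orc6, a small subunit of the same complex, was at 68.6 and 64.8 CPM with siCtl and 47.8 and 43.8 CPM with siNrf2 in MT∆Ecad, or -0.53 (SE 0.11, adjusted p = 0.0126). Cdt1, the licensing factor destroyed in S phase, was at 76.3 and 68.6 CPM with siCtl and 50.1 and 37.9 CPM with siNrf2 in MT∆Ecad and was not called there, at -0.72 (SE 0.23, adjusted p = 0.064). Its replicates lay apart within groups: in Py2T LT replicate 2 was lower than replicate 1 by 0.43 with siCtl and 0.58 with siNrf2. With pairing by replicate number Cdt1 was called in MT∆Ecad, with an adjusted p of 0.000718.

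Among the 6 genes that convert the loaded helicase into a fork, 3 fell in MT∆Ecad and 2 on the average. Mcm10, a scaffold of the starting fork, was at 72.9 and 60.2 CPM with siCtl and 43.7 and 38.3 CPM with siNrf2 in MT∆Ecad, or -0.68 (SE 0.11, adjusted p = 0.00502). It was at 122 and 110.1 CPM with siCtl and 102 and 94.2 CPM with siNrf2 in PyMT-1099 LT and at 88.9 and 82.6 CPM with siCtl and 79.4 and 78.0 CPM with siNrf2 in Py2T LT. The siNrf2 libraries were lower without overlap in each line. Gins1, which codes for the PSF1 subunit of GINS, was at 21.2 and 17.8 CPM with siCtl and 13.4 and 13.8 CPM with siNrf2 in MT∆Ecad, a difference of -0.49 (SE 0.13, adjusted p = 0.0306). In PyMT-1099 LT it was at 48.9 and 47.7 CPM with siCtl and 38.7 and 42.6 CPM with siNrf2 and in Py2T LT at 22.9 and 21.3 CPM with siCtl and 18.0 and 22.5 CPM with siNrf2, where 1 siNrf2 library lay within the siCtl range. Among the other GINS subunits, Gins4 was called in MT∆Ecad at -0.28 (SE 0.084, adjusted p = 0.0492), while Gins2 and Gins3 stood at -0.36 (SE 0.12, adjusted p = 0.0677) and -0.31 (SE 0.14, adjusted p = 0.174). Cdc45, the partner of GINS at the fork, was at 61.3 and 54.0 CPM with siCtl and 43.8 and 46.9 CPM with siNrf2, or -0.34 (SE 0.10, adjusted p = 0.0542). Gins3 was the only member not called in MT∆Ecad with pairing by replicate number, at an adjusted p of 0.0606.

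The sliding clamp and its loaders held the member with the smallest adjusted p in MT∆Ecad. Pcna (chr2:132249286-132253180), the ring that tethers polymerases to DNA, was at 156 and 150.0 CPM with siCtl and 97.3 and 87.1 CPM with siNrf2 in that line. It was at 181 and 178 CPM with siCtl and 166 and 154 CPM with siNrf2 in PyMT-1099 LT and at 139 and 138 CPM with siCtl and 127 and 127 CPM with siNrf2 in Py2T LT. All siNrf2 libraries were below the siCtl libraries of their line. The difference was -0.72 (SE 0.078, adjusted p = 0.000806) in MT∆Ecad, with a 95% interval of -0.90 to -0.55, and -0.17 and -0.12 in PyMT-1099 LT and Py2T LT.

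Of the 5 RFC subunits, which open the clamp around a primer, 3 fell in MT∆Ecad. Rfc3 was at 57.0 and 50.7 CPM with siCtl and 35.0 and 33.2 CPM with siNrf2 in MT∆Ecad, or -0.64 (SE 0.10, adjusted p = 0.00399). It was at 55.6 and 47.7 CPM with siCtl and 42.1 and 41.2 CPM with siNrf2 in PyMT-1099 LT and at 62.2 and 58.1 CPM with siCtl and 49.3 and 51.2 CPM with siNrf2 in Py2T LT, again without overlap. Rfc4 and Rfc5 fell by 0.58 and 0.64 (adjusted p = 0.00822 and 0.00655). Rfc2, a subunit shared by other clamp loaders, had the smallest difference of the 44 members in MT∆Ecad. It was at 65.2 and 66.2 CPM with siCtl and 56.5 and 57.8 CPM with siNrf2 in MT∆Ecad and at 62.3 and 59.9 CPM with siCtl and 69.0 and 60.4 CPM with siNrf2 in PyMT-1099 LT, with differences of -0.20 (SE 0.10, adjusted p = 0.221) and 0.079. Rfc1, the large subunit, varied between replicates, at 113 and 139 CPM with siCtl and 75.3 and 117 CPM with siNrf2 in PyMT-1099 LT, and was called in no line without pairing. Paired by replicate number, its adjusted p in MT∆Ecad was 0.0259. Dscc1, part of the loader that acts in sister chromatid cohesion, was called on the average at -0.38 (SE 0.085, adjusted p = 0.0233) and in no single line without pairing. Paired, it was called in MT∆Ecad at 0.0263. Its difference was -0.48 in Py2T LT, -0.41 in MT∆Ecad and -0.25 in PyMT-1099 LT, so that Py2T LT was not the line with the smallest difference.

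**Figure D4:**
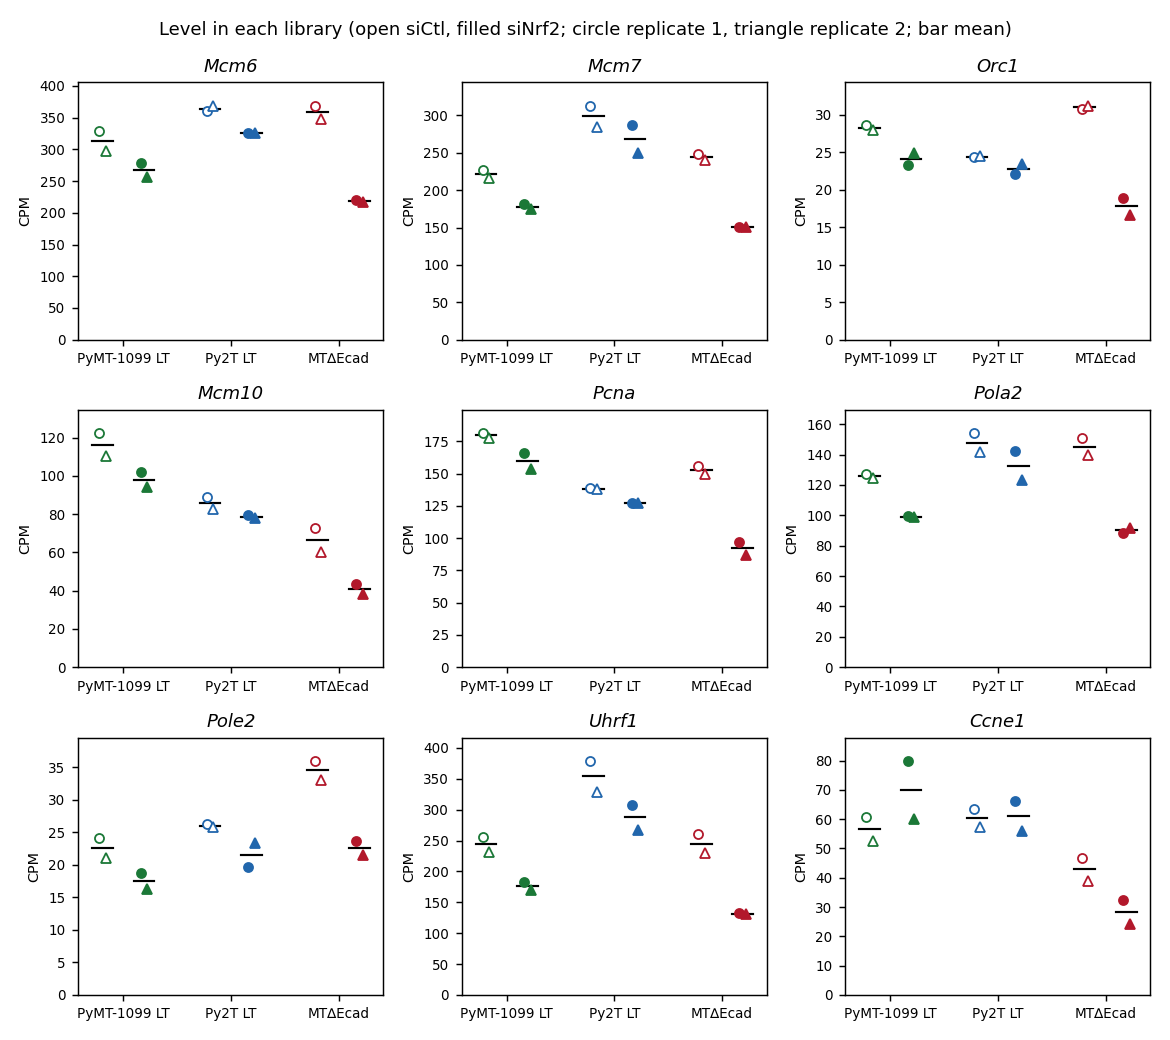
Level in CPM (y axis, from 0) of 9 members in each of the 12 libraries, grouped by line (x axis), with siCtl as open and siNrf2 as filled symbols, circles for replicate 1, triangles for replicate 2 and bars for the mean of 2 libraries. Filled symbols lie below open ones in MT∆Ecad for all 9, and Ccne1 in PyMT-1099 LT shows the opposite order of means.

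Polymerase alpha-primase makes the RNA-DNA primers from which both strands are extended, and 2 of its 4 subunits fell in MT∆Ecad and on the average. Pola2, the regulatory subunit, was at 151 and 139 CPM with siCtl and 88.7 and 91.6 CPM with siNrf2 in MT∆Ecad, or -0.68 (SE 0.089, adjusted p = 0.0018). It was at 127 and 124 CPM with siCtl and 99.4 and 98.7 CPM with siNrf2 in PyMT-1099 LT and at 154 and 142 CPM with siCtl and 142 and 123 CPM with siNrf2 in Py2T LT. Separation was complete in PyMT-1099 LT, with a difference of -0.34 (SE 0.089, adjusted p = 0.199), and with pairing by replicate number it was called there at an adjusted p of 0.0192. Prim1, the catalytic primase, was at 58.9 and 51.4 CPM with siCtl and 36.5 and 33.8 CPM with siNrf2 in MT∆Ecad, a difference of -0.64 (SE 0.14, adjusted p = 0.0175). In PyMT-1099 LT it was at 68.1 and 64.8 CPM with siCtl and 51.7 and 56.4 CPM with siNrf2, and in Py2T LT at 73.6 and 79.6 CPM with siCtl and 59.9 and 82.8 CPM with siNrf2.

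Prim2, the large primase subunit, differed by -0.25 (SE 0.083, adjusted p = 0.0717) in MT∆Ecad. Pola1, the catalytic polymerase subunit, had the widest gaps between replicates in PyMT-1099 LT and Py2T LT. It was at 66.9 and 98.8 CPM with siCtl and 39.8 and 83.2 CPM with siNrf2 in PyMT-1099 LT and at 44.8 and 77.2 CPM with siCtl and 38.9 and 94.2 CPM with siNrf2 in Py2T LT. Replicate 2 was higher than replicate 1 in each of these 4 groups, and replicate 1 was higher in MT∆Ecad, at 91.8 and 61.4 CPM with siCtl and 56.9 and 47.0 CPM with siNrf2. The difference in MT∆Ecad was -0.53 with a 95% interval of -1.60 to 0.54. Paired by replicate number, its adjusted p was 0.0259 there.

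Polymerases delta and epsilon, which copy the lagging and the leading strand, had 4 genes in the set, which all fell in MT∆Ecad, and 3 of them fell on the average. Of 4 further subunits outside the set, Pold3 fell in MT∆Ecad by 0.36 (adjusted p = 0.0153 in limma), while Pole3, Pole4 and Pold4 were not called, at -0.23, -0.19 and 0.17. Pole2, the second subunit of polymerase epsilon, was at 35.99 and 33.1 CPM with siCtl and 23.7 and 21.6 CPM with siNrf2 in MT∆Ecad, or -0.59 (SE 0.12, adjusted p = 0.0126). It was at 24.1 and 21.1 CPM with siCtl and 18.8 and 16.2 CPM with siNrf2 in PyMT-1099 LT and at 26.3 and 25.8 CPM with siCtl and 19.6 and 23.4 CPM with siNrf2 in Py2T LT. Pole, the catalytic subunit, was at 141 and 126 CPM with siCtl and 92.2 and 96.6 CPM with siNrf2 in MT∆Ecad, a difference of -0.49 (SE 0.085, adjusted p = 0.00599). In PyMT-1099 LT it was at 146 and 142 CPM with siCtl and 128 and 135 CPM with siNrf2 and in Py2T LT at 144 and 156 CPM with siCtl and 132 and 142 CPM with siNrf2. Both genes were lower with siNrf2 in every line without overlap, by small margins outside MT∆Ecad. Pold1 and Pold2, the catalytic and second subunits of polymerase delta, fell by 0.47 and 0.57 in MT∆Ecad (adjusted p = 0.0291 and 0.0234).

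Both genes that finish Okazaki fragments fell in MT∆Ecad and on the average. Fen1, the flap endonuclease, was at 211 and 208 CPM with siCtl and 142 and 142 CPM with siNrf2 in MT∆Ecad, or -0.56 (SE 0.091, adjusted p = 0.00444). Its levels overlapped in PyMT-1099 LT, at 182 and 169.9 CPM with siCtl and 180.1 and 165 CPM with siNrf2, and in Py2T LT, at 266 and 239.7 CPM with siCtl and 265 and 233 CPM with siNrf2. Lig1, the ligase that seals the nicks, was at 170.3 and 171 CPM with siCtl and 119 and 125 CPM with siNrf2 in MT∆Ecad, a difference of -0.48 (SE 0.08, adjusted p = 0.00503). It was at 184 and 174 CPM with siCtl and 163 and 151 CPM with siNrf2 in PyMT-1099 LT and at 155 and 148 CPM with siCtl and 145 and 132 CPM with siNrf2 in Py2T LT, where the siNrf2 libraries were again the lower ones.

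RPA coats single-stranded DNA at the fork, and its 3 subunits fell in MT∆Ecad. Rpa2 was at 82.1 and 76.1 CPM with siCtl and 53.6 and 54.3 CPM with siNrf2 in MT∆Ecad, or -0.54 (SE 0.11, adjusted p = 0.00997). It was at 84.4 and 76.4 CPM with siCtl and 74.3 and 64.2 CPM with siNrf2 in PyMT-1099 LT and at 76.4 and 68.1 CPM with siCtl and 69.4 and 61.8 CPM with siNrf2 in Py2T LT. Rpa1, the largest subunit, was at 356 and 339 CPM with siCtl and 259 and 254 CPM with siNrf2 in MT∆Ecad, or -0.44 (SE 0.092, adjusted p = 0.0126). In PyMT-1099 LT its libraries overlapped, at 377 and 334 CPM with siCtl and 351 and 311 CPM with siNrf2, and in Py2T LT they were at 279 and 262 CPM with siCtl and 259 and 240.3 CPM with siNrf2. Rpa3, the smallest, was called in MT∆Ecad at -0.33 (SE 0.10, adjusted p = 0.0452) and not on the average, with -0.26 in Py2T LT and 0.024 in PyMT-1099 LT.

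The 4 genes that copy chromatin and its methylation behind the fork all fell in MT∆Ecad. Uhrf1 (chr17:56303337-56323486), which binds hemimethylated DNA and recruits the maintenance methyltransferase, had the largest difference of the 44 members there. It was at 260.3 and 229 CPM with siCtl and 133 and 130.3 CPM with siNrf2 in MT∆Ecad, at 256 and 232 CPM with siCtl and 183 and 169.9 CPM with siNrf2 in PyMT-1099 LT and at 379 and 329 CPM with siCtl and 307 and 268 CPM with siNrf2 in Py2T LT. All siNrf2 libraries were below the siCtl libraries of their line. The differences were -0.89 (SE 0.11, adjusted p = 0.00138) in MT∆Ecad, -0.30 in Py2T LT and -0.46 in PyMT-1099 LT. Paired by replicate number it was the member called in all 3 lines, with adjusted p of 0.0494 in Py2T LT and 0.00711 in PyMT-1099 LT.

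Dnmt1, the maintenance methyltransferase itself, differed less, by -0.31 (SE 0.087, adjusted p = 0.0398) in MT∆Ecad. Chaf1b, the p60 subunit of the histone chaperone CAF-1, was at 122 and 117 CPM with siCtl and 73.1 and 69.5 CPM with siNrf2 in MT∆Ecad, or -0.73 (SE 0.10, adjusted p = 0.00255). It was at 122 and 112 CPM with siCtl and 109 and 93.1 CPM with siNrf2 in PyMT-1099 LT and at 67.4 and 60.2 CPM with siCtl and 61.1 and 55.6 CPM with siNrf2 in Py2T LT. Chaf1a, the p150 subunit of CAF-1, fell by 0.64 in MT∆Ecad (adjusted p = 0.00438).

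The 4 genes of S-phase entry and histone mRNA were lower in MT∆Ecad by level, but their unpaired adjusted p ran from 0.0558 to 0.222 in limma. With pairing by replicate number all 4 were called, Ccne1 at 0.000906, Ccne2 at 0.00194, E2f1 at 0.00496 and Slbp at 0.0142. Ccne1, which codes for cyclin E1, the activator of CDK2, was at 46.8 and 39.0 CPM with siCtl and 32.4 and 24.1 CPM with siNrf2 in MT∆Ecad. In PyMT-1099 LT it was at 60.7 and 52.5 CPM with siCtl and 79.9 and 60.0 CPM with siNrf2, with the higher mean in siNrf2, and in Py2T LT at 63.5 and 57.2 CPM with siCtl and 66.3 and 55.9 CPM with siNrf2. The differences were -0.59 in MT∆Ecad, 0.015 in Py2T LT and 0.29 in PyMT-1099 LT, and the groups overlapped in the latter lines.

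Ccne2, for cyclin E2, was at 60.1 and 39.3 CPM with siCtl and 37.8 and 26.0 CPM with siNrf2 in MT∆Ecad, where replicate 2 was lower than replicate 1 by 0.60 with siCtl and 0.52 with siNrf2. It was at 24.3 and 26.7 CPM with siCtl and 21.6 and 26.2 CPM with siNrf2 in PyMT-1099 LT and at 15.7 and 22.7 CPM with siCtl and 16.1 and 29.3 CPM with siNrf2 in Py2T LT. E2f1, a transcription factor of the G1/S wave and itself one of its targets, was at 66.2 and 63.9 CPM with siCtl and 52.9 and 49.4 CPM with siNrf2 in MT∆Ecad, at 78.6 and 74.8 CPM with siCtl and 85.9 and 72.5 CPM with siNrf2 in PyMT-1099 LT and at 63.5 and 56.1 CPM with siCtl and 71.0 and 57.5 CPM with siNrf2 in Py2T LT. Its differences of -0.34, 0.041 and 0.10 were not called. Slbp, which binds the stem-loop of histone mRNA, was called on the average at -0.26 (SE 0.065, adjusted p = 0.0345). It was at 68.6 and 68.4 CPM with siCtl and 53.8 and 52.5 CPM with siNrf2 in MT∆Ecad, at 55.6 and 54.0 CPM with siCtl and 43.6 and 49.6 CPM with siNrf2 in PyMT-1099 LT and at 87.7 and 89.0 CPM with siCtl and 69.2 and 87.3 CPM with siNrf2 in Py2T LT. Its siNrf2 libraries were the lower ones in each line.

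The 44 members together took 0.542% to 0.585% of the reads in the siCtl libraries of MT∆Ecad and 0.364% to 0.381% in the siNrf2 libraries, which is 66.1% of the control mean. In PyMT-1099 LT the shares were 0.564% and 0.597% with siCtl and 0.491% and 0.527% with siNrf2 (87.6%). In Py2T LT they were 0.595% and 0.631% with siCtl and 0.548% and 0.584% with siNrf2 (92.4%). Members that hold the E2F letters had a median of -0.70 in MT∆Ecad (12 of 15 called), those without them -0.57 (15 of 20), and those without an entry -0.41 (4 of 9). This split is a description and was not tested. Of the 7 members with the NRF2 core, 6 were called in MT∆Ecad and Gins3 was not. Among all members with an entry the calls were the 12 of 15 and 15 of 20 given above, and this too was not tested.

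Exons of 11 members overlap a coding gene on the other strand, and whether reads were counted by strand is not stated. These are Mcm7, Orc6, Cdc45, Gins2, Rfc2, Rfc4, Rfc5, Fen1, Lig1, Chaf1a and Ccne2, whose values are therefore uncertain to that extent. Of the other 33 members, 24 fell in MT∆Ecad and 22 on the average, beside 8.42% and 6.26% of all tested genes.

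Whether the knockdown acted differently between lines was tested directly. The F test over the 3 lines called 1 member of 44, Pcna, at an adjusted p of 0.0389. This is near the share over all tested genes, 2.18%. The difference between MT∆Ecad and PyMT-1099 LT was called for the same gene, beside 0.648% of all genes lower, and was -0.56 (SE 0.11, adjusted p = 0.0432). Between MT∆Ecad and Py2T LT 6 members were called, beside 0.96%. These were Pcna at -0.61 (SE 0.11, adjusted p = 0.0257), Orc1 at -0.67 (SE 0.13, adjusted p = 0.0323), Mcm6 at -0.55 (SE 0.11, adjusted p = 0.0335), Mcm4 at -0.67 (SE 0.14, adjusted p = 0.0351), Mcm3 at -0.69 (SE 0.15, adjusted p = 0.0463) and Mcm7 at -0.54 (SE 0.12, adjusted p = 0.0485). These comparisons share the MT∆Ecad libraries. Between Py2T LT and PyMT-1099 LT limma, edgeR and DESeq2 called 0 members, with 0 at an unadjusted p under 0.05 in each, beside 0.008% of all genes called by limma.

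With pairing by replicate number the F test called 27 members (19% of all genes), the difference between MT∆Ecad and PyMT-1099 LT 26 (7.43% lower) and that between MT∆Ecad and Py2T LT 31 (9.49% lower). All 6 helicase subunits and all 4 loading genes were among them in each of these tests. The unpaired calls depended on the tool and on single libraries. In edgeR 0 members were called in the 3 tests, with 17, 15 and 22 at an unadjusted p under 0.05 (10.4%, 3.5% and 5.4% of all genes). DESeq2, with a likelihood ratio test in place of the F test, called 4, 2 and 5. At that unadjusted level DESeq2 gave 18, 16 and 23 (9.79%, 3.69% and 5.42% of all genes). With 1 library left out, the F test called 1 member without Py2T LT siNrf2 replicate 1 and 0 without any other. The comparison with PyMT-1099 LT called 1 without either Py2T LT siNrf2 library and 0 without any other. For the comparison with Py2T LT, 0 members were called without MT∆Ecad siCtl replicate 1 or 2, MT∆Ecad siNrf2 replicate 2, or Py2T LT siCtl replicate 1 or 2. The count was 3 without MT∆Ecad siNrf2 replicate 1 and 1 or 2 without each PyMT-1099 LT library.

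Levels without knockdown were compared between the lines. Between siCtl libraries of Py2T LT and PyMT-1099 LT 19 members were called (8 lower, 11 higher in Py2T LT), beside 55.6% of all tested genes. Between MT∆Ecad and PyMT-1099 LT 14 were called (9 lower, 5 higher in MT∆Ecad), beside 57.6%, and between MT∆Ecad and Py2T LT 20 (14 lower, 6 higher), beside 54.4%. The median size of the difference over the members was 0.23, 0.21 and 0.25. MT∆Ecad had the lowest control level for 18 members and the highest for 6. Leaving out 1 library lowered these counts to 10, 9 and 10: the first without PyMT-1099 LT siCtl replicate 2 (11 without Py2T LT siCtl replicate 1), the second without MT∆Ecad siCtl replicate 2 or either PyMT-1099 LT siCtl library, and the third without MT∆Ecad or Py2T LT siCtl replicate 1 (11 without MT∆Ecad siCtl replicate 2).

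Gins1 was lower in Py2T LT and MT∆Ecad than in PyMT-1099 LT, by 1.09 and 1.27 (adjusted p = 6.33e-05 and 1.96e-05), with siCtl libraries at 21.2 and 17.8 CPM in MT∆Ecad, 22.9 and 21.3 CPM in Py2T LT and 48.9 and 47.7 CPM in PyMT-1099 LT. Chaf1b was lower in Py2T LT than in PyMT-1099 LT by 0.86 and higher in MT∆Ecad than in Py2T LT, at 0.89 (SE 0.10, adjusted p = 6.36e-05). Ccne2 was highest in MT∆Ecad, at 60.1 and 39.3 CPM against 24.3 and 26.7 CPM in PyMT-1099 LT and 15.7 and 22.7 CPM in Py2T LT, with differences of 0.91 (SE 0.31, adjusted p = 0.0327) to PyMT-1099 LT and 1.32 (SE 0.31, adjusted p = 0.00572) to Py2T LT. Pole2 was also highest in MT∆Ecad, at 0.59 (SE 0.12, adjusted p = 0.00256) against PyMT-1099 LT. Cdc45 and Pold2 were lower in MT∆Ecad than in PyMT-1099 LT, by 0.69 and 0.77, and than in Py2T LT, by 0.83 and 0.84. Mcm5 was higher in Py2T LT and MT∆Ecad than in PyMT-1099 LT, by 0.48 and 0.58.

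**Figure D5:**
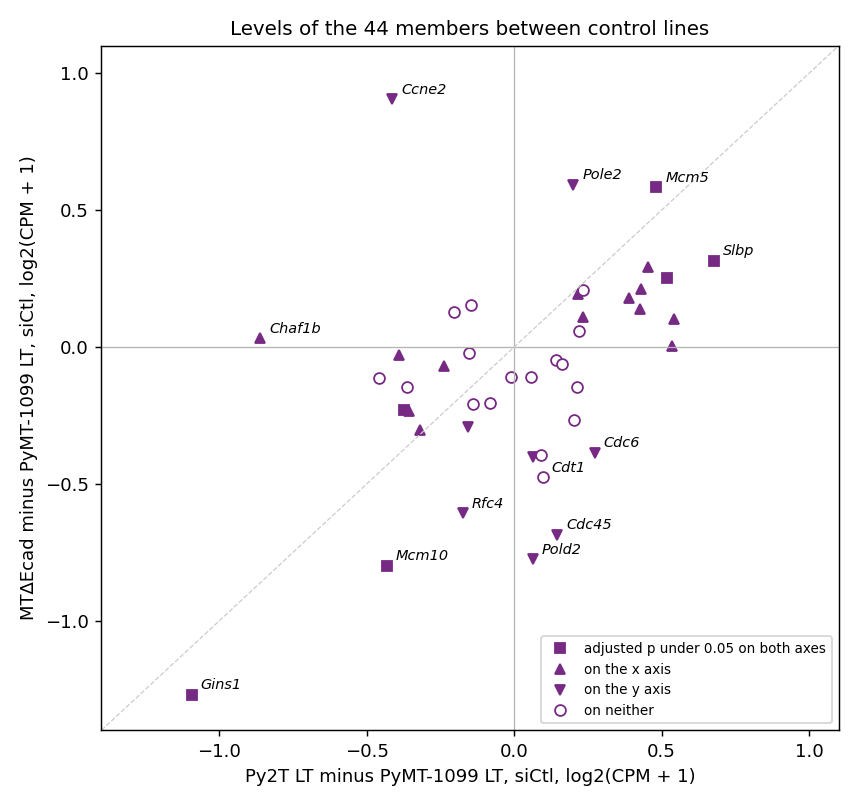
Difference of each of the 44 members between siCtl libraries on the log2(CPM + 1) scale, Py2T LT minus PyMT-1099 LT on the x axis and MT∆Ecad minus PyMT-1099 LT on the y axis. Symbols show on which axis the adjusted p is under 0.05, and points on the dashed line have equal values on both axes. Gins1 lies lowest on both axes, at -1.09 and -1.27, and Ccne2 highest on the y axis, at 0.91.

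Other genes of the pathway were counted in lists, each beside the 8.42% of all tested genes called lower in MT∆Ecad and 6.26% on the average. Of 38 other replication factors 13 fell in MT∆Ecad and 10 on the average. Orc2, Orc3, Orc4 and Orc5, the remaining core subunits of the origin recognition complex on the list, were not called, at -0.46, 0.0018, -0.23 and -0.37 in MT∆Ecad. Among the called genes were Recql4, Ticrr, which helps to load CDC45, and Mcmbp, at -0.39, -0.30 and -0.27 on the average. Deoxynucleotide supply had 8 of 11 genes called lower in both, led by the thymidine kinase Tk1 at -0.69 and with Rrm1 and Dut at -0.26 and -0.27. Among 17 genes of RB, E2F and the DREAM complex 8 and 5 fell, among them Mybl2, Tfdp2 and Tfdp1, at -0.43, -0.56 and -0.23. Among 12 cyclins and kinases of G1/S 6 and 5 fell, among them Cdk4, Cks1b and Ccnd1, at -0.39, -0.32 and -0.40. Of 11 checkpoint genes 1 was called in MT∆Ecad, a share near that over all genes, and 2 on the average, Atrip at -0.25 and Chek2 at -0.29 on the average.

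The 7 CDK inhibitors, which block entry into S phase, had a median difference of 0.13 in MT∆Ecad, -0.15 in Py2T LT and -0.055 in PyMT-1099 LT. They were not called in any line without pairing, and the smallest adjusted p in MT∆Ecad was 0.112 in limma, for Cdkn1b. In MT∆Ecad 3 of the 7 stayed under 1 CPM. Cdkn2a and Cdkn2b, named after their values were seen, were at 56.6 and 49.0 CPM on average in siCtl libraries of PyMT-1099 LT and at 54.4 and 35.0 CPM in Py2T LT. In MT∆Ecad Cdkn2a was at 0.055 CPM and Cdkn2b was listed at 0. Of 24 mitosis genes 7 fell in MT∆Ecad and 7 on the average, beside the same 8.42% and 6.26% of all tested genes, among them Aurkb, Foxm1 and Bub1b at -0.46, -0.26 and -0.27 on the average. The list's median in MT∆Ecad was -0.27.

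Of 12 listed interferon-stimulated genes 7 were tested, and these 7 rose in MT∆Ecad, beside 8.89% of all tested genes called higher. On the average 5 rose, beside 5.99%. Ifit1, Ifit3, Oas1a, Rsad2 and Usp18 did not pass the filter, which a gene can pass through 1 group alone. In MT∆Ecad Ifit1 averaged 0.582 and 0.857 CPM with siCtl and siNrf2, and Ifit3 0.950 and 0.618 CPM. Irf7 averaged 3.62 CPM in MT∆Ecad with siNrf2 and at most 1.05 CPM in every other group. Irf7, Xaf1 and Ddx58 differed by 1.69, 1.24 and 1.07 in MT∆Ecad, and were not called elsewhere, at 0.49, 0.62 and 0.36 in PyMT-1099 LT (adjusted p = 0.103, 0.143 and 0.325) and at 0.075, -0.065 and 0.012 in Py2T LT. The summed level of the 12 genes of that list was 106 to 113 CPM with siCtl and 209.8 to 213.8 CPM with siNrf2 in MT∆Ecad. Among mesenchymal markers only Fn1 was called in MT∆Ecad, at 0.76, with means of 5469 CPM with siCtl and 9247 CPM with siNrf2. Vim, Cdh2, Zeb1, Twist1, Snai2 and Sparc were at 0.13, 0.14, 0.17, 0.093, 0.29 and 0.31, and Zeb2 at -0.47. The summed level of the 8, of which Fn1 is a large part, was 12030 to 12590 CPM with siCtl and 16480 to 17380 CPM with siNrf2. The part of these changes in the fall of the replication genes was not tested.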

How the data were processed

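Total RNA from 12 cultures was depleted of ribosomal RNA, made into stranded libraries and read as 81-base single reads, per the labels' protocols. The authors deposited 1 table of CPM per gene, with no log. STAR and the build mm10 are named in the submitters' processing notes, and the counting tool, annotation and use of strand are not given in the sources used here. The members and lists were chosen with earlier results of these data known. Whole reads were recovered from the CPM steps for all values (tolerance 0.01 reads). Of 24454 genes, 12502 reached 1 CPM in at least 2 libraries and were tested. The CPM values, as deposited, were put on the log2(CPM + 1) scale and fitted with limma 3.58.1 in R 4.3.3, with 6 group means, 6 residual degrees of freedom and Benjamini-Hochberg adjustment over all tested genes. The fit was tested on simulated counts in which libraries were independent and shared 1 fixed spread. That test did not cover deviations shared by libraries of the same replicate number.

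Libraries with the same replicate number within a line deviated together (r = 0.625 in MT∆Ecad, 0.846 in Py2T LT and 0.778 in PyMT-1099 LT). A fit with the pair as a block (3 residual degrees of freedom) is therefore given as counts, and by gene for part of the changed calls. In PyMT-1099 LT that fit also called Mcm10, Rfc3, Rfc4, Rfc5, Pole2, Lig1 and Chaf1b, and in MT∆Ecad it called all members but Gins3. Alternatives were edgeR 4.0.16 and DESeq2 1.42.0 on the recovered reads, trimmed-mean scaling, pseudocounts of 0.5 and 5, a filter at 5 CPM or none, 1 line alone, and leaving out each library or line. The 33 members without exon overlap on the other strand were chosen after seeing the data. Values in every library are given for up to 2 members per role with the smallest adjusted p on the average, up to 5 per single line or difference between lines, and members that go against the rest. Up to 3 called genes per other list are named by the same p. Library values of further members were added after they were seen.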

Additional observations from a re-analysis of the deposited data

Results flagged for a closer look

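By a test of the difference itself in limma, the response to the knockdown differed between lines for 7 gene-by-comparison results. In edgeR 0 members were called in the same comparisons, and no cause was tested. Between MT∆Ecad and PyMT-1099 LT, Pcna, the sliding clamp, differed by -0.56 (SE 0.11, adjusted p = 0.0432), beside 0.648% of all tested genes called lower. Between MT∆Ecad and Py2T LT, where 0.96% of all tested genes were called lower, the same gene differed by -0.61 (SE 0.11, adjusted p = 0.0257). The origin gene Orc1 differed by -0.67 (SE 0.13, adjusted p = 0.0323) in the latter comparison. Of the helicase subunits, Mcm6 differed by -0.55 (SE 0.11, adjusted p = 0.0335) and Mcm7 by -0.54 (SE 0.12, adjusted p = 0.0485). Mcm3 and Mcm4 differed by -0.69 (SE 0.15, adjusted p = 0.0463) and -0.67 (SE 0.14, adjusted p = 0.0351). In each case both pairs of libraries were lower with siNrf2 in MT∆Ecad, as they were for all 44 members, called or not. Of 12 fits that each leave out 1 library, Pcna and Mcm6 were called in 4 against Py2T LT, Mcm4 and Orc1 in 2, Mcm7 in 1 and Mcm3 in 0.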

How the results depend on the processing

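The direction of every member in MT∆Ecad was the same under all alternatives, and its count of called members was 23 to 43 outside the fits that leave out a library. With pairs of the same replicate number as a block, 1 member was called in Py2T LT, 13 in PyMT-1099 LT, 27 in the F test, 26 between MT∆Ecad and PyMT-1099 LT and 31 between MT∆Ecad and Py2T LT. The average without MT∆Ecad called 0 members and turned positive for Rfc2 (0.032), Ccne1 (0.15), Ccne2 (0.051) and E2f1 (0.069). The F test called 4 members with a pseudocount of 5 and 0 in edgeR, and the likelihood ratio test of DESeq2 called 4. Between MT∆Ecad and PyMT-1099 LT, DESeq2 called 2, and 0 were called by edgeR, with trimmed-mean scaling, with a filter at 5 CPM or with a pseudocount of 0.5. Between MT∆Ecad and Py2T LT edgeR called 0. The cause of these shifts was not tested.

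Leaving out 1 library at a time gave 15 to 37 members in MT∆Ecad, 16 to 29 on the average and 0 to 0 in each of the other lines. It gave 0 to 1 for the F test and for MT∆Ecad against PyMT-1099 LT, and 0 to 5 for MT∆Ecad against Py2T LT. Between siCtl libraries it gave 10 to 21 (Py2T LT and PyMT-1099 LT), 9 to 17 (MT∆Ecad and PyMT-1099 LT) and 10 to 22 (MT∆Ecad and Py2T LT). Of the 31 calls in MT∆Ecad 14 held in all 12 such fits, and of the 28 on the average 16. A group left with 1 library was assumed to vary like the others. The members lay at 5.84 CPM or more in every library, and what limits the number of calls was not tested.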
